A study of Arabidopsis thaliana with 22 samples.

Results

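The 4 genes rpoA, rpoB, rpoC1 and rpoC2 of the chloroplast genome encode the core subunits of the plastid-encoded RNA polymerase. They were taken as every probe set whose platform gene symbol is one of these names. Each gene had 1 probe set of its own, so 4 of the 22746 probe sets that are not controls were followed, beside 65 other plastid-encoded genes with a probe set of their own. Transcript levels were measured on 22 Affymetrix ATH1 arrays, 1 per RNA sample, of whole seedlings of Arabidopsis thaliana, accession Landsberg erecta. The labels describe the samples of a group as biological replicates without saying whether they were grown apart, so p-values measure spread between these samples. In the main fit this spread was pooled for each gene over all 22 arrays, so it is not that of the compared groups alone.

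The quintuple mutant phyABCDE lacks all 5 phytochromes, A to E, the red and far-red light receptors of the plant. The quadruple mutant phyABDE keeps phytochrome C alone, and wild type (WT) has all of them. Each mutant had 3 arrays of seedlings kept under continuous red light of 50 µmol per square metre and second (R50). A further 2 arrays per mutant came from seedlings given 2 h of that light after darkness (DR2h), and 3 came from seedlings kept in darkness. WT had 2 R50 arrays and 4 dark arrays and no DR2h array among the samples used here. Seeds of all groups first spent 4 days cold and dark and 3 h in white light, and seedlings were collected after a further 4 days. The comparisons address which changes with red light occur with all phytochromes, with phytochrome C alone and with none.

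Chloroplasts read their own genome with a bacterial-type polymerase and with phage-type polymerases imported from the cytosol. In the bacterial-type enzyme, rpoA encodes the alpha subunit, on which the core assembles. The rpoB gene encodes the beta subunit and rpoC1 the beta-prime subunit, which together form the active centre, and rpoC2 encodes the beta-double-prime subunit, the counterpart of the carboxy-terminal part of bacterial beta-prime. The genes rpoB, rpoC1 and rpoC2 lie next to each other in that order and are transcribed as an operon, mainly by the phage-type polymerase of the plastid, whereas rpoA follows a row of ribosomal protein genes. Nuclear-encoded sigma factors and associated proteins give the enzyme its promoters and its activity, and it transcribes most photosynthesis genes of the plastid as etioplasts turn into chloroplasts. Red light acts on this process in part through phytochromes.

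Values are log2 of the deposited intensity, differences are log2 differences, and a probe set was called at a Benjamini-Hochberg adjusted p under 0.05 over all 22746 probe sets in limma. Statements that the arrays of groups did or did not overlap describe the arrays. The share of all probe sets without overlap was not counted, so no change is inferred from them. Per the series text, RNA for 5 WT arrays (dark replicates 2 to 4 and both R50 replicates) was labelled by the One-cycle kit, and RNA for the remaining 17 by the 3' IVT Express kit. Kits of this type prime from oligo(dT), and plastid transcripts mostly lack long poly(A) tails. A kit term in the fit makes the WT response rest on those 5 arrays and ties the mutants to dark WT through 1 array, dark replicate 1. Arrays of a group correlated at 0.978 to 0.995 over probe sets, which are not independent replicates. Array medians lay between 40.2 and 44.9 intensity units. Green tissue markers, 4 nuclear genes of light harvesting and carbon fixation, averaged 11.08 to 11.34 in WT R50 arrays and 9.56 to 10.05 in WT dark arrays, in the direction the light labels give.

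The rank of each probe set within its array places these genes. On each of the 22 arrays rpoA was brighter than 93.5% to 99.0% of probe sets. The corresponding range was 60.0% to 93.3% for rpoC2, 52.2% to 93.4% for rpoC1 and 10.5% to 50.7% for rpoB. The rpoB probe set was thus dim, and its differences in the mutants were made near the low end of the scale. Levels of different probe sets are not comparable with each other, so each gene is followed against itself.

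Dark WT arrays of the 2 kits differed in some of these genes. In dark WT seedlings rpoB read 4.20, 4.51 and 4.12 on the 3 One-cycle arrays, against 2.73 on the 3' IVT Express array. The difference of 1.55 ± 0.24 (SE) passed the test (adjusted p = 0.00062). For rpoC1 the One-cycle arrays read 9.23, 9.29 and 9.32, against 6.95 on the other kit, a difference of 2.33 ± 0.56 (SE, adjusted p = 0.016). The differences of 1.42 for rpoC2 (adjusted p = 0.14) and of -0.16 for rpoA (adjusted p = 0.90) did not pass. So 2 of the 4 genes differed past the threshold between these 3 arrays and that 1 array, where 6.68% of all probe sets did. Of the other 65 plastid genes 24 were called, all higher with the One-cycle kit, with a median difference of 1.17, against a median of -0.03 over all probe sets. Because 1 array stands on the 3' IVT Express side, it was assumed to vary like the arrays of the other groups, and the kit and that sample cannot be told apart.

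In WT seedlings rpoB rose under red light, while the other genes of its operon had negative estimates that did not pass the test. The rpoB probe set read 5.48 and 5.47 under R50, against 4.20, 4.51 and 4.12 in darkness on the same kit. Both light arrays lay above every dark array. The change of 1.20 ± 0.19 (SE), or 2.30-fold, had a 95% interval of 0.81 to 1.59 and passed the test (adjusted p = 5.3e-05). It was 0.77 with an offset of 16 intensity units added before the logarithm, still past the threshold. This was 1 of 4 genes called, where 27.5% of all probe sets were called. Tissue markers moved in the same comparison, with 3 of 4 green tissue markers and 2 of 2 root hair markers called higher under R50. Of 3 seed markers 1 was called lower, at -5.06. The other 2 had positive estimates that did not pass, the highest at 1.30. The gap between the 3' and 5' probes of the actin control was 3.31 to 3.45 in WT R50 arrays and 3.03 to 3.21 in WT dark arrays. Their part in the rpoB result was not tested.

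The other subunits showed no called change in WT, and their estimates were negative. The beta-prime gene rpoC1 read 9.09 and 8.40 under R50, against 9.23, 9.29 and 9.32 in darkness (change -0.54 ± 0.44, SE, adjusted p = 0.42). The beta-double-prime gene rpoC2 read 7.96 and 7.54 under R50, against 9.11, 8.55 and 8.25 in darkness (change -0.89 ± 0.44, SE, adjusted p = 0.15). The alpha gene rpoA read 9.65 and 9.31 under R50, against 10.01, 9.73 and 9.90 in darkness (change -0.40 ± 0.35, SE, adjusted p = 0.47). In all these genes both R50 arrays lay below every dark array of the same kit, the opposite side from rpoB, which describes the arrays only. With only the WT arrays in the fit the change of rpoC2 passed the threshold (adjusted p = 0.040), at the same value of -0.89.

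The gaps between the subunit genes within an array restate these changes pair by pair and are given as a description. The gap to its operon partner rpoC1 averaged -3.268 under R50 and -5.004 in darkness, a change of 1.74. The change was 2.09 for the gap to rpoC2 and 1.60 for the gap to rpoA. R50 and dark arrays did not overlap in any of these 3 gaps, nor in that between rpoC2 and rpoA, which changed by -0.49. The gaps between rpoC1 and rpoC2 and between rpoC1 and rpoA did overlap. With 2 arrays against 3, the exact two-sided permutation test cannot go below p = 0.2, the value it gave for each gap without overlap (0.3 after adjustment over 6 pairs of genes). Among the 69 plastid genes rpoB stood 3rd in WT when signed changes were ordered from the highest rise, rpoA 41st, rpoC1 49th and rpoC2 62nd.

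**Figure D1:**
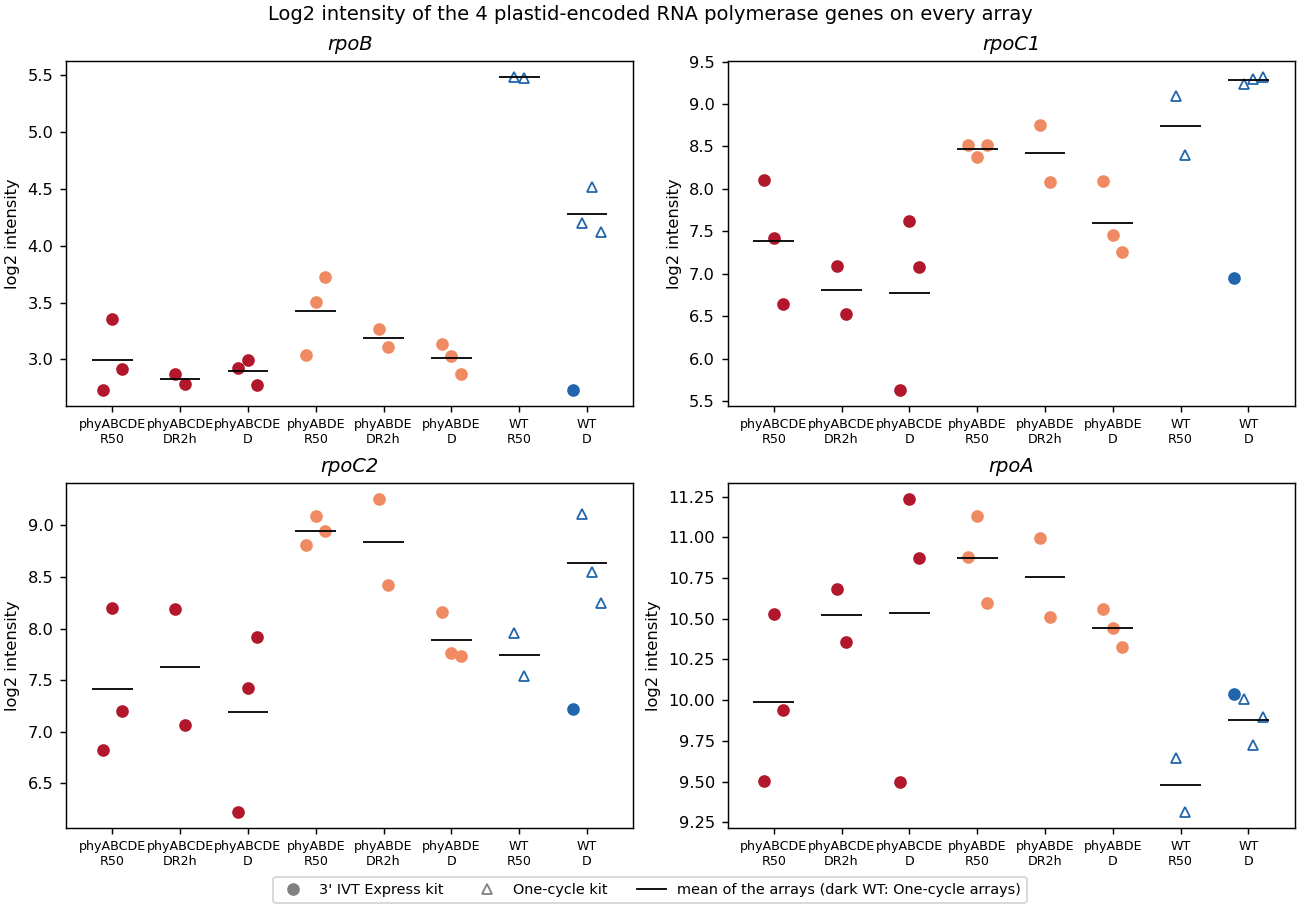
Log2 intensity of rpoB, rpoC1, rpoC2 and rpoA on each of the 22 arrays, 1 panel per gene, by genotype and light. Points are arrays, with the kit shown by the marker. The WT R50 arrays of rpoB, at 5.48 and 5.47, are the highest of that panel, and the dark WT array of the 3' IVT Express kit lies at 2.73.

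With phytochrome C as the only phytochrome, no subunit gene changed past the threshold under R50, though all estimates were positive. The rpoC2 probe set of phyABDE read 8.81, 9.09 and 8.95 under R50, against 8.16, 7.76 and 7.73 in darkness. For rpoC1 the arrays read 8.52, 8.38 and 8.51 under R50, against 8.09, 7.46 and 7.26 in darkness. In both genes every R50 array was higher than every dark array, a description beside changes that did not pass. The change was 1.06 ± 0.39 (SE, adjusted p = 0.28) for rpoC2 and 0.87 ± 0.39 (SE, adjusted p = 0.41) for rpoC1. These SE come from the spread pooled over all groups. The SD of rpoC2 was 0.14 under R50 and 0.24 in darkness in phyABDE, against 0.71 and 0.87 in phyABCDE.

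The rpoB arrays of phyABDE read 3.04, 3.50 and 3.73 under R50, against 3.13, 3.03 and 2.87 in darkness, and these groups overlapped (change 0.42 ± 0.17, SE, adjusted p = 0.33). Those of rpoA read 10.88, 11.13 and 10.60 under R50, against 10.56, 10.45 and 10.33 in darkness, without overlap (change 0.43 ± 0.32, SE, adjusted p = 0.65). So limma called 0 of 4 genes, where 0.145% of all probe sets were called, and 3 of 4 had an unadjusted p under 0.05, as 11.6% of all probe sets had. The 2 R50 arrays with the highest rpoB values also had the widest gap between the 3' and 5' probes of the GAPDH control, a sign of RNA or labelling quality, with 0.52 and 0.53. That gap was 0.07 in the other R50 array and 0.12 to 0.18 in the dark arrays, and its part in the result was not tested.

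Without any phytochrome the arrays of rpoC1 and rpoC2 spread widely, in darkness (SD 1.03 and 0.87) as well as under R50 (SD 0.73 and 0.71). The rpoC1 probe set of phyABCDE read 8.10, 7.42 and 6.65 under R50, against 5.63, 7.62 and 7.08 in darkness. The rpoC2 arrays read 6.82, 8.20 and 7.20 under R50, against 6.22, 7.43 and 7.92 in darkness. Light and dark arrays overlapped in both. The changes were 0.61 ± 0.39 and 0.22 ± 0.39 for rpoC1 and rpoC2 (SE, adjusted p = 0.93 and 0.99). With each array left out in turn they ranged from 0.04 to 1.04 for rpoC1 and from -0.26 to 0.59 for rpoC2, the lowest of each without dark replicate 1.

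The rpoB arrays of phyABCDE read 2.73, 3.35 and 2.91 under R50, against 2.92, 2.99 and 2.78 in darkness (change 0.10 ± 0.17, SE, adjusted p = 0.98). Those of rpoA read 9.50, 10.53 and 9.94 under R50, against 9.50, 11.24 and 10.87 in darkness (change -0.55 ± 0.32, SE, adjusted p = 0.91). Again the groups overlapped. Limma called 0 of 4 genes, where 0.00879% of all probe sets were called, and 0 of 4 had an unadjusted p under 0.05. Dark replicate 1 of this mutant was the lowest of its group in rpoC1, rpoC2 and rpoA, and the mean of the other plastid genes was also lowest there, at 6.56 against 8.04 and 7.94.

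After 2 h of red light the phyABDE arrays of rpoC2 read 9.26 and 8.42 and those of rpoC1 8.76 and 8.08, near the R50 values. The dark arrays are the same as in the comparison above, so the responses to DR2h and R50 share them. Against darkness the differences in phyABDE were 0.95 ± 0.44 for rpoC2, 0.82 ± 0.44 for rpoC1, 0.31 ± 0.35 for rpoA and 0.18 ± 0.19 for rpoB (SE). The test called 0 of 4 genes in limma, where 0.0044% of all probe sets were called, and rpoC2 alone had an unadjusted p under 0.05 (1 of 4, against 4.16% of all probe sets).

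In phyABCDE the DR2h arrays read 8.19 and 7.06 for rpoC2, 7.10 and 6.52 for rpoC1, 10.68 and 10.36 for rpoA and 2.87 and 2.79 for rpoB. Their differences from darkness were 0.44 ± 0.44, 0.03 ± 0.44, -0.01 ± 0.35 and -0.07 ± 0.19 (SE), in the same order of genes. Limma called 0 of 4 genes, where 0.0176% of all probe sets were called, and 0 of 4 had an unadjusted p under 0.05. The 95% interval of the rpoC2 difference ran from -0.48 to 1.35, so a change of the size estimated in phyABDE lay inside it.

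**Figure D2:**
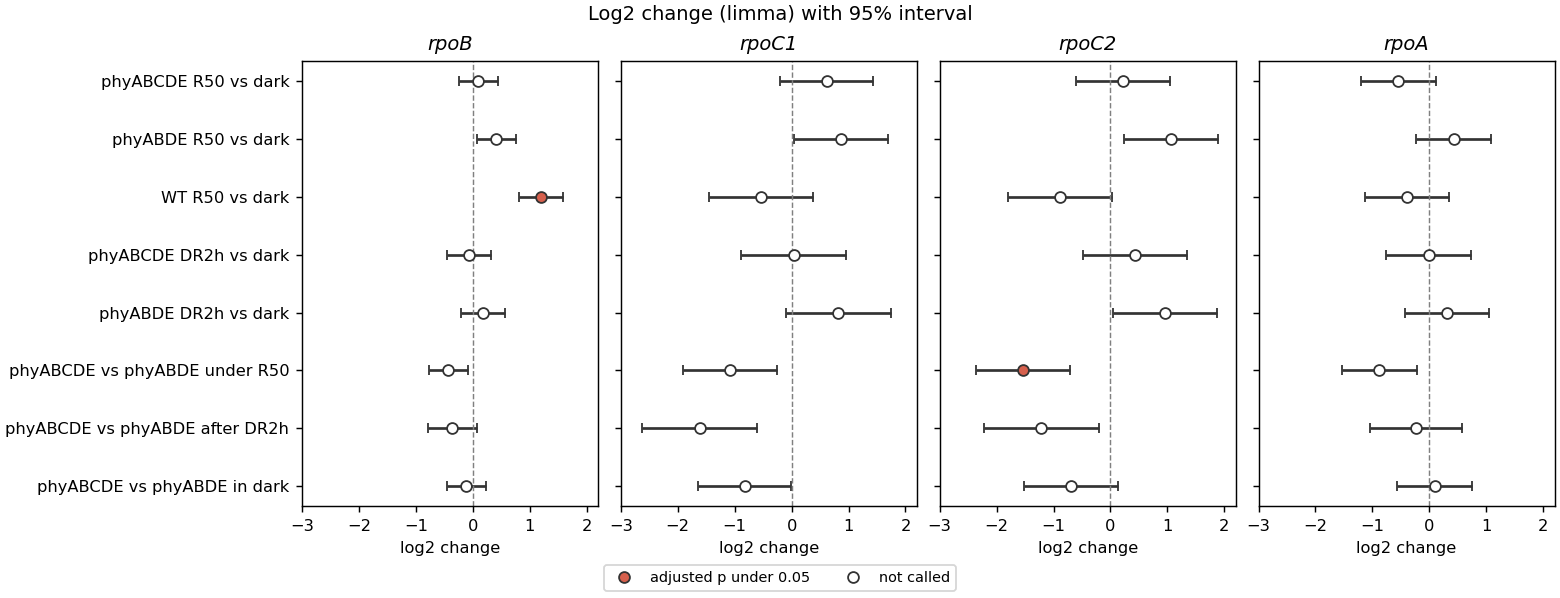
Log2 change of each subunit gene with its 95% interval from limma in 8 comparisons, with called changes in red. The change of rpoB in WT lies at 1.20, and the intervals of most light responses in the mutants cross 0.

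The mutants were then set against each other, which needs no WT array and compares arrays of a single kit. Under R50 all 4 genes were lower in phyABCDE than in phyABDE by estimate, and rpoC2 passed the test. Its arrays read 6.82, 8.20 and 7.20 in phyABCDE, against 8.81, 9.09 and 8.95 in phyABDE, without overlap. The difference was -1.54 ± 0.39 (SE, adjusted p = 0.032), or 2.90-fold lower in phyABCDE. For rpoC1 the difference was -1.08 ± 0.39 (adjusted p = 0.13), for rpoA -0.88 ± 0.32 (adjusted p = 0.13) and for rpoB -0.43 ± 0.17 (adjusted p = 0.16). So 1 of 4 genes was called, where 3.97% of all probe sets were called, and 4 of 4 had an unadjusted p under 0.05, as 18.4% of all probe sets had. In rpoC1 and rpoA too, which were not called, each phyABCDE array lay below each phyABDE array, and in rpoB the groups overlapped.

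The call of rpoC2 under R50 was narrow. It was lost without phyABCDE replicate 1 (-1.24) or 3 (-1.43), and without phyABDE replicate 1 (-1.61), 2 (-1.47) or 3 (-1.54). Without phyABDE replicate 1 rpoB was called in its place, at -0.62 (adjusted p = 0.042). With the mean level of the other plastid genes as a covariate, an alternative chosen after seeing the data, the rpoC2 difference shrank to -0.33 (adjusted p = 0.76).

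That mean level of 65 plastid genes was 7.37 ± 0.20 in phyABCDE and 8.36 ± 0.18 in phyABDE under R50 (SD, n = 3 each). The rpoC2 difference thus went together with lower values over the plastid genome. Of the 65 other genes 24 were called lower and 0 higher (36.9%, against 3.97% of all probe sets in either direction), with a median of -1.02. In these whole seedlings, fewer plastids or green cells, less plastid RNA per cell and a different capture of plastid RNA in preparation or labelling cannot be told apart. The mean plastid level also varied within a group, at 6.56, 8.04 and 7.94 in the dark phyABCDE arrays. Between the kits in dark WT the 65 genes differed by a median of 1.17. Tissue markers are given beside this. The 3 seed and embryo markers measured averaged 9.41 to 9.78 in phyABCDE and 7.83 to 8.93 in phyABDE under R50, with 0 of 3 called. The 4 green tissue markers averaged 9.66 to 9.91 in phyABCDE and 9.98 to 10.64 in phyABDE, with 1 of 4 called lower, and their part in the result was not tested.

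In darkness the differences between phyABCDE and phyABDE were -0.83 ± 0.39 for rpoC1, -0.70 ± 0.39 for rpoC2, -0.11 ± 0.17 for rpoB and 0.09 ± 0.32 for rpoA (SE). No gene was called by limma (0 of 4), where 2.33% of all probe sets were called, and rpoC1 alone had an unadjusted p under 0.05 (1 of 4, against 13.2% of all probe sets). Without phyABCDE dark replicate 1, the array with low values over the plastid genome, these differences were -0.25 for rpoC1, -0.21 for rpoC2, -0.13 for rpoB and 0.61 for rpoA. With each of the 6 arrays left out in turn they ranged from -1.25 to -0.25 for rpoC1, -1.06 to -0.21 for rpoC2 and -0.26 to 0.61 for rpoA. After DR2h the difference was -1.61 ± 0.48 for rpoC1 (SE, adjusted p = 0.13) and -1.21 ± 0.48 for rpoC2 (SE, adjusted p = 0.30). It was -0.36 for rpoB and -0.23 for rpoA. After DR2h limma called 0 of 4 genes, where 1.2% of all probe sets were called, and 2 of 4 had an unadjusted p under 0.05, as 11.4% of all probe sets had. Both phyABCDE arrays lay below both phyABDE arrays in rpoC1 and rpoC2 after DR2h, though neither gene was called.

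Whether the light responses themselves differed between the mutants was tested with an interaction term. The R50 response of phyABCDE minus that of phyABDE was -0.97 ± 0.45 for rpoA, -0.84 ± 0.55 for rpoC2, -0.31 ± 0.24 for rpoB and -0.25 ± 0.56 for rpoC1 (SE). Limma called 0 of 4 genes, where 0% of all probe sets were called, with 899 probe sets, rpoA among them (1 of 4), at an unadjusted p under 0.05. For DR2h the corresponding differences lay between -0.79 and -0.25. Limma called 0 of 4 genes and 0% of all probe sets, with 723 probe sets and 0 of 4 members at an unadjusted p under 0.05. The lower rpoC2 level of phyABCDE under R50 is therefore not shown to be a difference in the response to light.

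Set against WT, the response of rpoB in log2 was smaller in both mutants, where the probe set was dim. The R50 response of phyABCDE minus that of WT was -1.10 ± 0.25 for rpoB (SE, adjusted p = 0.0040), and 1 of 4 genes was called, where 17.2% of all probe sets were. For rpoC1, rpoC2 and rpoA it was 1.15 ± 0.59, 1.11 ± 0.59 and -0.15 ± 0.47 (SE, adjusted p = 0.21, 0.23 and 0.89). The R50 response of phyABDE minus that of WT was -0.78 ± 0.25 for rpoB (SE, adjusted p = 0.042) and 1.95 ± 0.59 for rpoC2 (SE, adjusted p = 0.031). For rpoC1 and rpoA it was 1.40 ± 0.59 and 0.82 ± 0.47 (SE, adjusted p = 0.14 and 0.31). Here 2 of 4 genes were called, where 13.6% of all probe sets were. Both comparisons use the same 5 WT arrays. Since the mutant responses were measured with one kit and the WT response with the other, genotype and kit cannot be told apart as the source of these differences in size. The rpoB probe set read 6.6 to 13.2 intensity units on mutant arrays and 17.4 to 44.7 on One-cycle WT arrays. The mutant values lie near the low end of the scale, which also limits what the smaller rpoB response can show.

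The calls in phyABDE against WT were narrow. With the replicate number as a block, the rpoB value was -0.86 (adjusted p = 0.16) and the rpoC2 value 2.64 (adjusted p = 0.062). The rpoB call was lost without phyABDE dark replicate 1 (-0.72) or 2 (-0.78), phyABDE R50 replicate 1 (-0.59) or 2 (-0.82), WT dark replicate 2 (-0.75) or 4 (-0.71), or either WT R50 replicate (-0.78 and -0.79). The rpoC2 call was lost without phyABDE dark replicate 2 (1.89) or 3 (1.88), phyABDE R50 replicate 2 (1.88) or 3 (1.95), WT dark replicate 2 (1.71), or either WT R50 replicate (2.16 and 1.74). The rpoB call in phyABCDE against WT was kept without each of the 12 arrays in turn, with values of -1.27 to -0.97.

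In darkness neither mutant differed from WT past the threshold. For phyABCDE minus WT the estimates were 0.17 for rpoB, -0.17 for rpoC1, -0.03 for rpoC2 and 0.50 for rpoA, with 0 of 4 called in limma, 0 of 4 at an unadjusted p under 0.05, and 3.6% of all probe sets called. For phyABDE minus WT they were 0.28, 0.65, 0.67 and 0.41 in the same order, with 0 of 4 called in limma, 0 of 4 at an unadjusted p under 0.05, and 0.805% of all probe sets called. These estimates rest on WT dark replicate 1 alone on the WT side, and the 95% interval for rpoC1 in phyABCDE ran from -1.33 to 0.99. Without the kit term the difference for rpoB was -0.99 in phyABCDE and -0.88 in phyABDE, both called and of the opposite sign. In that fit rpoC1 was also called lower in phyABCDE, at -1.92 (adjusted p = 0.0093). The other values without it were -1.09 for rpoC2 in phyABCDE and, in phyABDE, -1.10 for rpoC1 and -0.40 for rpoC2, and the last 2 turned sign. Those of rpoA were 0.62 in phyABCDE and 0.53 in phyABDE.

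The levels of each gene over the 6 mutant groups, all on the 3' IVT Express kit, were put in order from the lowest mean. For rpoC2 they were 7.19 ± 0.87 in phyABCDE dark, 7.41 ± 0.71 in phyABCDE R50, 7.63 ± 0.80 in phyABCDE DR2h, 7.89 ± 0.24 in phyABDE dark, 8.84 ± 0.59 in phyABDE DR2h and 8.95 ± 0.14 in phyABDE R50 (SD, n = 3, or 2 for DR2h). In this order, phyABDE dark and phyABDE DR2h were the only neighbours whose arrays did not overlap. For rpoC1 the order was phyABCDE dark (6.78 ± 1.03), phyABCDE DR2h (6.81 ± 0.41), phyABCDE R50 (7.39 ± 0.73), phyABDE dark (7.60 ± 0.43), phyABDE DR2h (8.42 ± 0.48) and phyABDE R50 (8.47 ± 0.08), and each pair of neighbours overlapped.

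For rpoB the order was phyABCDE DR2h (2.83 ± 0.06), phyABCDE dark (2.90 ± 0.11), phyABCDE R50 (3.00 ± 0.32), phyABDE dark (3.01 ± 0.13), phyABDE DR2h (3.19 ± 0.11) and phyABDE R50 (3.42 ± 0.35), again with overlap between neighbours. For rpoA it was phyABCDE R50 (9.99 ± 0.52), phyABDE dark (10.44 ± 0.12), phyABCDE DR2h (10.52 ± 0.23), phyABCDE dark (10.54 ± 0.92), phyABDE DR2h (10.75 ± 0.35) and phyABDE R50 (10.87 ± 0.27), with overlap between neighbours. The phyABDE R50 group stood at the top in each of the 4 genes. On the One-cycle kit the rpoB mean was 5.48 ± 0.0051 in WT R50 (SD, n = 2) and 4.28 ± 0.21 in WT dark (SD, n = 3).

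The level of the plastid genome as a whole puts these values in context. The mean log2 level of the other 65 plastid genes was 9.02 ± 0.05 in WT R50 (SD, n = 2), against 9.33, 9.19 and 9.09 on the One-cycle dark arrays and 7.60 on the 3' IVT Express one. In phyABDE it was 8.36 ± 0.18 under R50 and 8.03 ± 0.25 in darkness (SD, n = 3 each). The rpoB level less this mean was -3.57 to -3.51 in WT R50 and -5.13 to -4.68 in One-cycle WT dark arrays, so rpoB moved against the mean. In phyABDE the rpoC2 level less this mean was 0.51 to 0.70 under R50 and -0.21 to -0.07 in darkness, also without overlap. The rpoA level less this mean was 0.33 to 0.80 on One-cycle arrays and 2.16 to 3.20 on 3' IVT Express arrays. The arrays of the kits did not overlap in this measure.

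**Figure D3:**
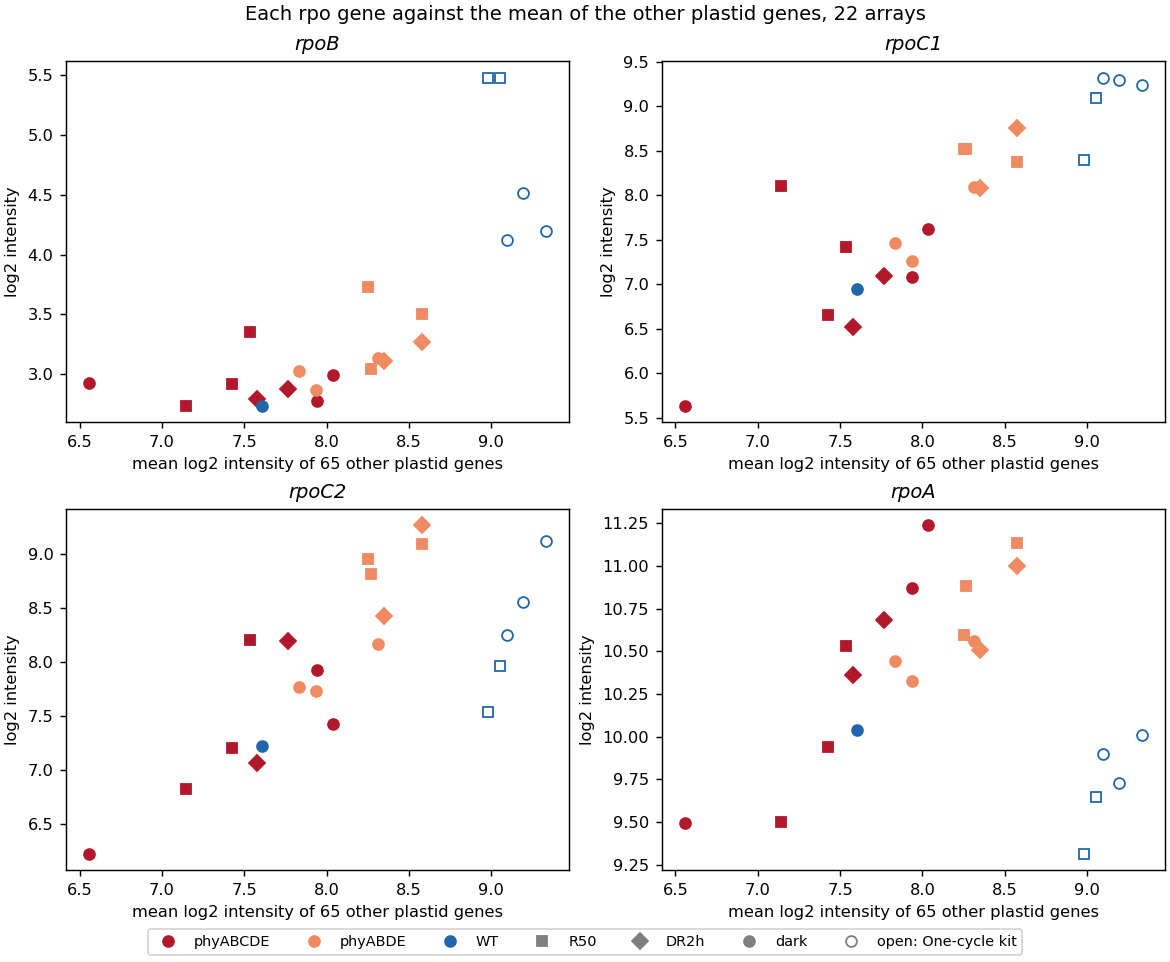
Log2 level of each subunit gene against the mean log2 level of the other 65 plastid genes, 1 point per array, 22 arrays. The WT R50 points of rpoB lie above the One-cycle dark points at about the same plastid mean, and rpoA lies lower for its plastid mean on One-cycle arrays.

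Genes next to the subunit genes were set beside the plastid genome as a whole. The 7 neighbours of the rpoB operon on both sides had 0 calls in WT under R50, where 27.5% of all probe sets were called. Their median change was -0.34, against -0.02 over all probe sets. Over the 65 other plastid genes, these neighbours included, the WT median was -0.29 with 10 called (15.4%). A negative median was thus not particular to the neighbours. Among the neighbours were petN with 0.38 ± 0.26 and psbM with 0.21 ± 0.17, which lie before rpoB. They encode small subunits of the cytochrome b6f complex and of photosystem II. On the other side were atpI with 0.52 ± 0.34 and atpF with -0.34 ± 0.40 (SE), genes of the plastid ATP synthase. The rise of rpoB in WT was thus not shared by a measured neighbour past the threshold. In phyABDE all 7 neighbours had positive estimates under R50, with a median of 0.53. In phyABCDE 6 of 7 had, with a median of 0.08. Of the 65 other plastid genes 55 had positive estimates in phyABDE (median 0.33) and 19 in phyABCDE (median -0.12). Between the mutants under R50, 2 of 7 neighbours were called lower in phyABCDE, atpF at -1.43 ± 0.36 and petN at -0.88 ± 0.23 (SE). These are 28.6%, against 36.9% of the other plastid genes and 3.97% of all probe sets in either direction.

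Of the 6 measured neighbours of rpoA, petD, a cytochrome b6f subunit gene, rose in WT under R50 by 1.42 ± 0.35 (SE), and rpl16, a ribosomal protein gene of the same row as rpoA, fell by 2.41 ± 0.71 (SE). The ribosomal protein genes rpl14 at -1.99 ± 0.86 and rps3 at -0.59 ± 0.32 (SE) did not pass. The 2 calls are 33.3% of this list, against 27.5% of all probe sets. The median over the 6 genes was -0.44. In phyABDE these neighbours had a median of 0.27 and 0 of 6 called.

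**Figure D4:**
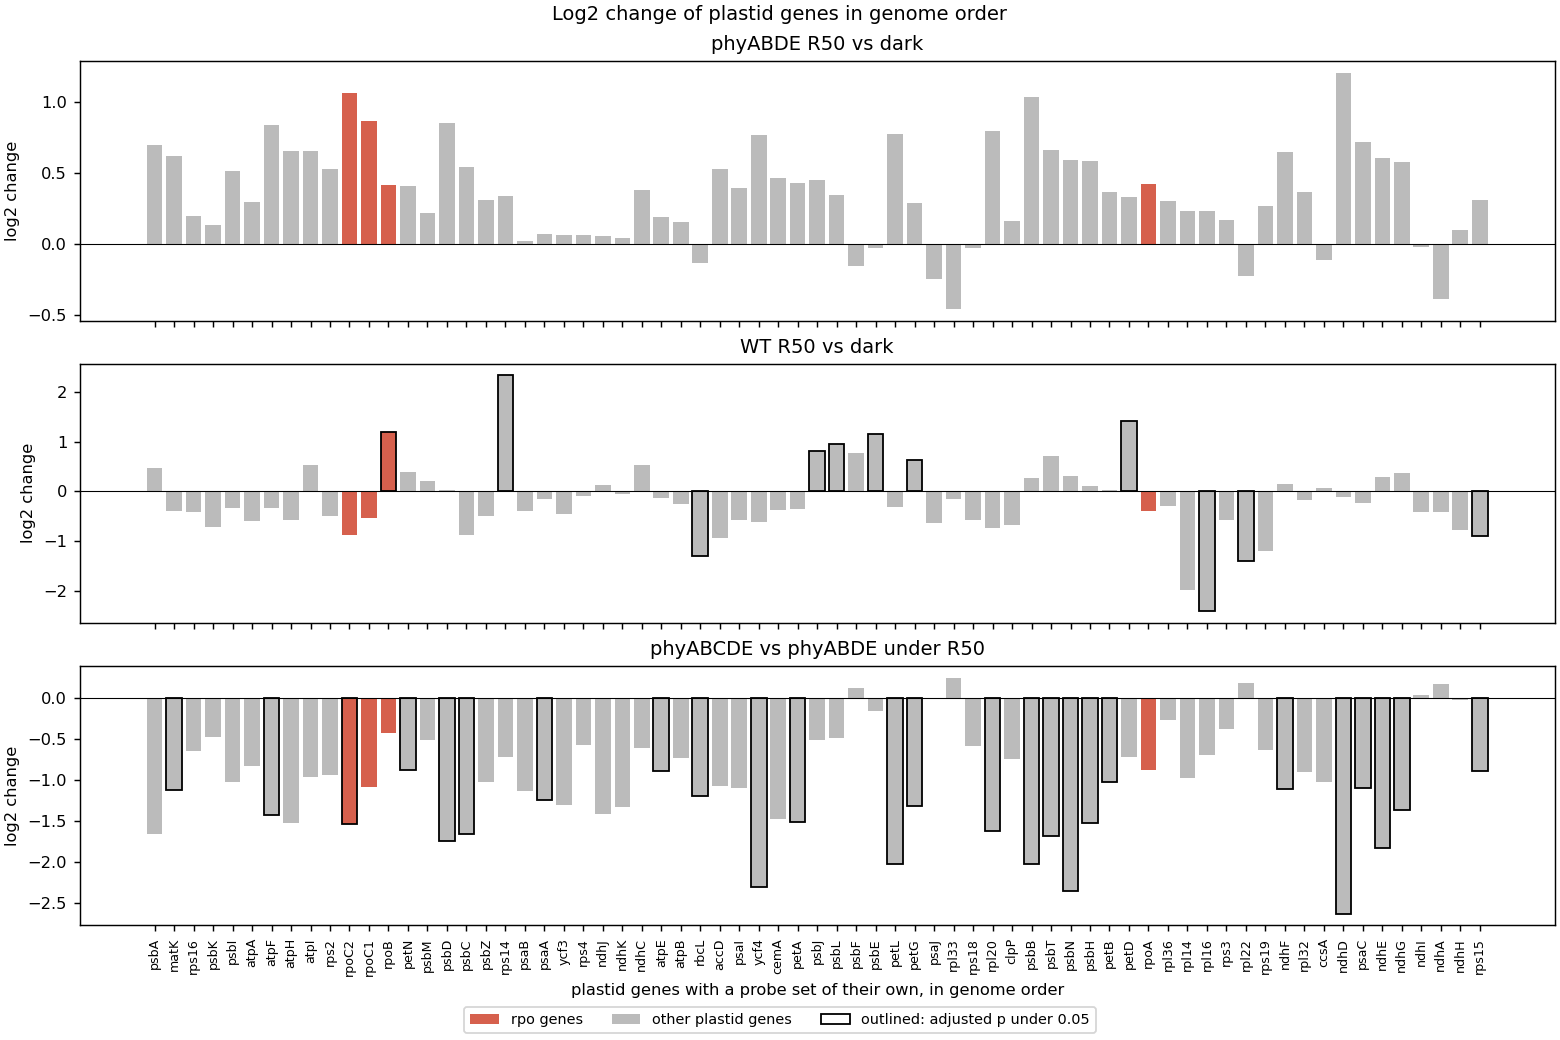
Log2 change of 69 plastid genes in the order in which they lie on the plastid genome, for R50 against dark in phyABDE and in WT and for phyABCDE against phyABDE under R50. The subunit genes are marked and called changes outlined. In WT rpoB stands at 1.20 beside rpoC1 at -0.54 and rpoC2 at -0.89, while most plastid genes lie below 0 in the comparison of the mutants.

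Plastid genes were grouped by the polymerase known to read them. The 4 measured genes read mainly by the phage-type polymerase had 0 calls in WT under R50, where 27.5% of all probe sets were called. They were accD, of fatty acid synthesis (-0.94 ± 0.36), clpP, a protease subunit (-0.69 ± 0.35), and the ribosomal protein genes rps2 (-0.49 ± 0.48) and rpl32 (-0.17 ± 0.39, SE). Their median was -0.59, against -0.29 over the 65 other plastid genes and -0.58 over 15 plastid ribosomal protein genes. A negative median in WT was thus not particular to genes read by this polymerase. In phyABDE the median of these 4 genes under R50 was 0.45 and in phyABCDE -0.01, with 0 of 4 called in each. Between the mutants under R50 it was -0.92, with 0 of 4 called.

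Of 26 photosynthesis genes read mainly by the plastid-encoded polymerase, 3 rose and 1 fell in WT under R50, with a median change of -0.06. These 4 calls are 15.4% of the list, against 27.5% of all probe sets. The gene of the large Rubisco subunit, rbcL, fell by 1.31 ± 0.30, and petD rose, as given above. The photosystem genes psaC at -0.23 ± 0.20 and psbB at 0.28 ± 0.30 (SE) did not pass in WT. In phyABDE 22 of the 26 had positive estimates under R50, with a median of 0.38 and 0 called. Between the mutants 15 of 26 (57.7%, against 3.97% of all probe sets in either direction) were called lower in phyABCDE under R50, with a median of -1.22, among them psbB at -2.02 ± 0.27 and psaC at -1.10 ± 0.18 (SE).

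The 19 genes read by both enzymes had 0 calls in WT under R50, where 27.5% of all probe sets were called, and a median of -0.13. Between the mutants under R50, 7 of 19 (36.8%, against 3.97% of all probe sets in either direction) were called lower in phyABCDE, with a median of -1.11. Examples are matK, an intron maturase gene, at -1.12 ± 0.19, and ndhE, of the NADH dehydrogenase-like complex, at -1.83 ± 0.21 (SE). Of 15 plastid ribosomal protein genes, rps14 rose in WT under R50 by 2.34 ± 0.30 and 3 fell, rpl16, rpl22 by 1.40 ± 0.47 and rps15 by 0.89 ± 0.24 (SE). These 4 calls are 26.7% of the list, near the 27.5% of all probe sets. The 18 mitochondrial probe sets, read by phage-type polymerases, had a median of -0.05 in WT under R50 with 2 called lower (11.1%, against 27.5% of all probe sets). Between the mutants under R50 their median was -0.07 with 0 called. The phage-type polymerase gene with a named probe set, AT5G15700, changed by 0.04 in phyABCDE, 0.27 in phyABDE and 0.25 in WT under R50, and none of these passed. It read 3.07 to 3.70 over the arrays, and the mitochondrial probe sets averaged 3.59 to 4.14. Both are near the low end of the scale, which limits what their changes can show. The 6 sigma factor genes and 13 genes of polymerase-associated proteins are unnamed among the probe sets and were not analysed here.

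The genes whose pattern over the 22 arrays was most like each subunit gene were found among 1580 probe sets with a gene symbol, by the root mean square difference after removing each gene's own mean. For rpoA the nearest were the plastid genes rps3 (0.28), rps19 (0.36) and ndhC (0.37) and the nuclear genes PORB (0.39), of chlorophyll synthesis, and PGY1 (0.39), beside a spread of rpoA about its own mean of 0.55. For rpoC2, with a spread of 0.78, they were the plastid genes psbZ (0.42), matK (0.44), psbI (0.45), rpl20 (0.46) and clpP (0.49). For rpoC1, with a spread of 0.98, they were psaI (0.41), petB (0.44), petA (0.46), atpI (0.47) and rpl20 (0.50), again all plastid genes. For rpoB, with a spread of 0.81, all were nuclear, namely THIC (0.38), of thiamine synthesis, NdhS (0.38), SETH5 with both of its probe sets (0.38 and 0.40) and HPR (0.40), of photorespiration.

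No subunit gene was among the nearest genes named for another, which were picked as the closest of 1580 candidates. In order of nearness to rpoC1, rpoC2 stood 18th, rpoB 34th and rpoA 1342nd. For rpoC2, rpoC1 stood 36th, rpoA 46th and rpoB 1361st. For rpoB, rpoC1 stood 349th, rpoC2 1235th and rpoA 1482nd. For rpoA, rpoC2 stood 1143rd, rpoC1 1521st and rpoB 1526th. The difference was 0.68 between rpoC1 and rpoC2, 0.70 between rpoC2 and rpoA, 0.74 between rpoB and rpoC1, 0.95 between rpoB and rpoC2, 1.14 between rpoC1 and rpoA and 1.17 between rpoB and rpoA. These values describe 22 arrays that share genotype, light and kit and carry no test.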

How the data were processed

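Whole-seedling RNA of 22 samples was hybridised to ATH1 arrays. The deposited table holds linear intensity, 1 value per probe set and array. The submitters' processing notes name GCOS, RMA and limma without version or role, and other steps are not given in the sources used here. Medians near 42 units needed no further normalization. The labels of single samples name the 3' IVT Express kit for all arrays, and the series text, which names both kits, was followed.

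Of 22810 probe sets, 64 controls were left out. The platform annotation names 1 gene for 13513 of the 22746 tested, several for 503 and none for 8730. The RefSeq table of TAIR10.1 gave plastid membership and gene order only, and no coordinates were used. Log2 intensity was fitted with limma 3.58.1 (lmFit, eBayes) in R 4.3.3, with 8 group means and a kit term, and 14 comparisons were adjusted by Benjamini-Hochberg over all probe sets. The fit was tested on simulated data. Python 3.11.15, numpy 2.4.6, pandas 2.3.3, scipy 1.17.1 and matplotlib 3.10.9 were used otherwise. Precision is limited by the number of arrays. The genes, lists and comparisons were chosen with earlier results of these data known.

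Each list was named by its members with the smallest p in WT or phyABDE under R50, at most 4. Likeness used the 5 nearest probe sets. Alternatives were no kit term, the replicate block, only the compared arrays, array weights, quantile normalization, median centring of arrays, an offset, a filter on dim probe sets, probe sets of 1 gene only, trend and robust moderation, each replicate left out, and, chosen after seeing the data, a plastid level covariate. Same-numbered R50 and dark arrays deviated together at 0.33, 0.12 and 0.25 in phyABCDE and 0.48, 0.18 and 0.11 in phyABDE (r of deviations from group means over probe sets). For DR2h and dark arrays it was 0.09 and -0.19 in phyABCDE and 0.05 and -0.22 in phyABDE. Between the dark mutants it was -0.11, -0.16 and -0.04. The block was an alternative only. It took numbers as pairs in every comparison, across genotypes where 2 genotypes were compared at the same light.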

Additional observations from a re-analysis of the deposited data

Results flagged for a closer look

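The response of rpoB to continuous red light differed between genotypes by an interaction term in limma. It was lower in phyABCDE than in WT by a log2 difference of -1.10 (adjusted p = 0.0040), and lower in phyABDE than in WT by -0.78 (adjusted p = 0.042). The response of rpoC2 was higher in phyABDE than in WT, by 1.95 (adjusted p = 0.031). Both calls in phyABDE were lost with the replicate block, at -0.86 for rpoB (adjusted p = 0.16) and 2.64 for rpoC2 (adjusted p = 0.062). The WT and mutant responses were measured with different labelling kits, so genotype and kit cannot be told apart here. In the mutants rpoB was near the low end of the scale, which limits what its smaller response can show.

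Among the 4 dark WT arrays, the gap of rpoC1 from the lowest array to the next, divided by the range of the group, was 0.963, above Dixon's 95% critical value for a group of 4. The lowest array is replicate 1, the one labelled with the 3' IVT Express kit. Chance alone gives such a flag in about 1 of 20 groups.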

How the results depend on the processing

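The rise of rpoB in WT kept its direction and its call in every alternative that held the gene, at 0.77 to 1.59, and at 1.12 to 1.32 with each replicate left out. A filter at a mean log2 of at least 5 removed rpoB, which left 0 genes called in WT (main 1) and 0 for phyABCDE minus WT (main 1). Only the compared arrays gave 2 calls in WT. Without the kit term rpoB reversed in darkness, to -0.99 in phyABCDE (adjusted p = 0.014) and -0.88 in phyABDE (adjusted p = 0.033) against WT, with 2 and 1 genes called there (main 0 each), and WT dark replicate 1 cannot be left out of these with the term in place. For phyABCDE against phyABDE under R50 (main 1), calls were 0 without the kit term, with the offset of 16, with trend and robust moderation and with the plastid level covariate, and 0 to 1 with each replicate left out. After DR2h (main 0) the count was 1, rpoC1, with only the compared arrays and with array weights. For phyABDE minus WT (main 2) it was 0 without the kit term and with the replicate block, 1 with quantile normalization, the offset, the filter, and trend and robust moderation, and 0 to 2 with each replicate left out. With only the compared arrays it was 3, with rpoB lost and rpoA and rpoC1 gained. The replicate block changed no other call of these genes.

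Over 14 comparisons, and apart from left-out replicates, 582 values of single genes kept their direction or stayed uncalled, 12 lost a call, 6 gained one and 2 reversed. With replicates left out these counts were 387, 20, 1 and 0. The cause of these shifts was not tested. Over all probe sets, calls ranged from 0 to 2 (main 2) for phyABCDE under R50, 4 to 120 (main 33) for phyABDE under R50 and 3797 to 6425 (main 6245) for WT under R50. After DR2h they ranged from 1 to 26 (main 4) in phyABCDE and 0 to 6 (main 1) in phyABDE. Between the mutants they were 245 to 661 (main 529) in darkness, 364 to 1138 (main 903) under R50 and 77 to 998 (main 274) after DR2h. Against dark WT they were 423 to 5562 (main 819) for phyABCDE and 61 to 4441 (main 183) for phyABDE, the highest without the kit term. The dim rpoB probe set limits what its changes in the mutants can show.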
